A study of Arabidopsis thaliana with 13 samples.

Results

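AT3G62550 is an Arabidopsis gene on chromosome 3 that is annotated as universal stress protein-like. It was chosen because of its high ratio at 6 h against 0 h on these arrays, where it is also high at 12 h, so the values of those comparisons are given as a description and were not tested. The gene is 1 of 3689 named genes on the array and is represented by 2 of the 12800 features, called A and B here. RNA of Arabidopsis thaliana was compared between harvest times, labelled in hours, on 13 spotted arrays with 2 colours. Each array had RNA of 1 time in one channel and RNA of another in the second, and all titles carry the word circadian. The comparisons were 6 h with 0 h (2 arrays), 12 h with 0 h (5 arrays), 18 h with 0 h (2 arrays), 24 h with 0 h (1 array), 36 h with 24 h (1 array), 36 h with 24 h in the dark (1 array, both channels labelled D and the title dark) and 60 h with 48 h (1 array). For the 60 h array alone the labels give the light, which was a cycle of 12 h light and 12 h dark followed by continuous light, begun 24 h before the earlier harvest. Strain, age, tissue and the number of plants per RNA are not in the labels, so no tissue could be checked against markers. Comparisons with 1 array have no replicates.

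Universal stress proteins are small proteins that were first described in bacteria, where they accumulate when growth stops or nutrients run out. Plants carry a family of genes for proteins with this domain, many of which are known to respond to water deficit, low oxygen, cold or hormones, and the domain of several members binds ATP. In leaves, transcripts of many stress-related genes are also known to follow the light-dark cycle, the sugar status and the circadian clock.

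All values below are log2 ratios of the later over the earlier time, after subtraction of the array's median, and a ratio is read as channel 2 over channel 1. That reading is the usual form of such ratios, but it is not stated by the sources used here, and the other reading would turn every sign. Under it the dark-induced genes MCCA, MCCB and IVD are higher at 36 h on the dark array, but they are about as high on the array with no stated light condition (MCCA at 3.53 and 3.16, IVD at 3.06 and 3.02), and their values were known when they were looked at. At 6 h, AT3G62550 stood at 3.53 on array 1 and 2.76 on array 2, with a mean of 3.15 ± 0.55 (SD, n = 2), which is 8.86-fold. At 12 h the 5 arrays gave 0.33, 1.14, 1.61, 1.13 and 1.27, with a mean of 1.10 ± 0.47 (SD, n = 5) or 2.14-fold. All of these ratios were above 0, and both 6 h values lay above the highest of the 12 h values. At 18 h the values were 1.28 and 2.01 (mean 1.65 ± 0.51, SD, n = 2), which overlap the range of the 12 h arrays and lie below both arrays of 6 h. The single array of 24 h gave -0.36, below the lowest array of 12 h. Set in order against 0 h, the gene was thus highest at 6 h, then at 18 h and 12 h, which were not separated beyond the spread of their arrays, and lowest at 24 h. The arrays of 18 h and of 24 h had no swap of channels, so a preference for a channel could enter this order. In whole-plant or tissue RNA, more transcript per cell and more cells of an expressing type cannot be told apart.

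**Figure D1:**
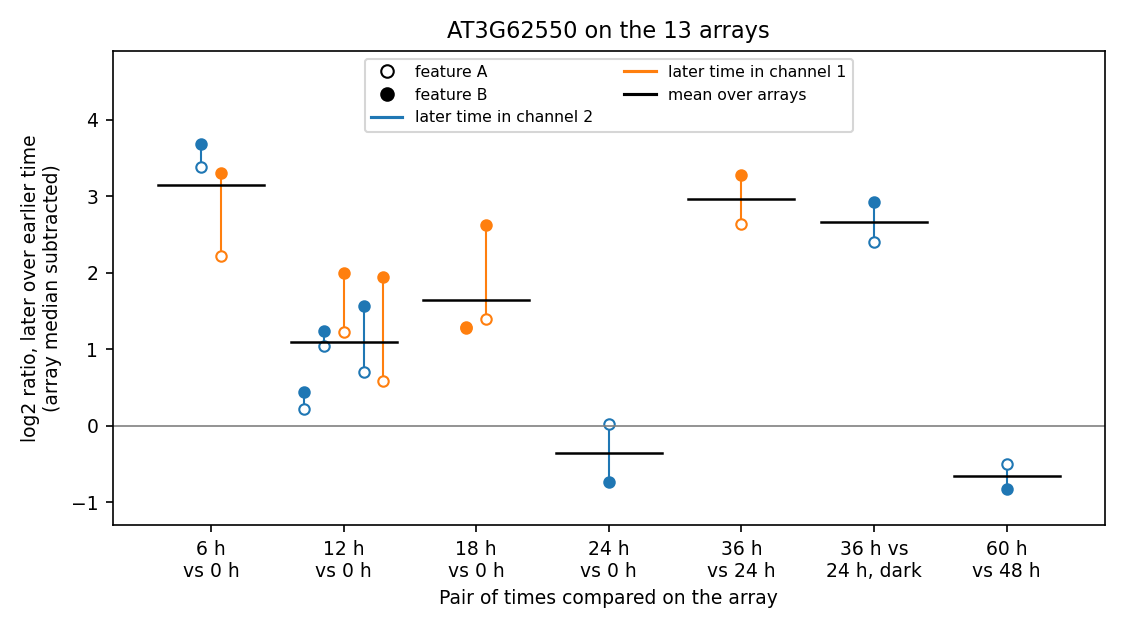
Log2 ratios of AT3G62550 (y axis, later over earlier time) on each of the 13 arrays, grouped by the pair of times (x axis), with open circles for feature A, filled circles for feature B, colours for the channel that held the later time, and a black line for the mean of the arrays. The arrays of 6 h and both arrays of 36 h sit highest, while those of 24 h and 60 h lie around or below 0.

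The arrays that compared 36 h with 24 h were not used to choose the gene and gave values near those of 6 h. Earlier results of these data were known when it was chosen. AT3G62550 stood at 2.96 (7.77-fold) on the array with no stated light condition and at 2.66 (6.31-fold) on the dark array. On these arrays it ranked 7 of 3689 and 10 of 3686 among named genes from the highest ratio down, or from the lowest up if the ratios run the other way. Among all targets, named or not, its fitted change, given next, ranked 44 of 11285 and 74 of 11248, counted in the same direction. limma was fitted across all targets with a coefficient for each pair of times and a dye term, which takes out a constant preference of a target for one channel. In it the gene rose by 2.87 ± 0.51 (SE, 1 array, 95% interval 1.73 to 4.01, limma adjusted p = 0.0329) from 24 to 36 h. It rose by 2.75 ± 0.51 (1 array, 95% interval 1.60 to 3.89, limma adjusted p = 0.0329) from 24 to 36 h in the dark. Of all targets, 1.54% and 2.16% were called at an adjusted p under 0.05 in these comparisons. Each lone array is assumed to vary like the others, and the spread and the dye term come partly from the arrays of 6 h and 12 h.

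These calls lie close to the threshold. From 24 to 36 h the gene was no longer called by limma when array 1 or array 2 of 6 h was left out (adjusted p = 0.0588 for each), and likewise for array 3 (0.0629) and array 5 of 12 h (0.0702). In the dark the call was lost when array 3 (limma adjusted p = 0.0718) or array 5 of 12 h (0.0732) was left out. The change from 24 to 36 h in the dark was 0.12 lower than that on the other array, with a 95% interval of the difference from -1.84 to 1.59 (limma adjusted p = 0.9995 over all targets), so differences of up to that size are not excluded by these arrays. This contrast was chosen after the values were seen.

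In continuous light the gene was not higher at the later time. On the array of 60 h against 48 h it stood at -0.66, and both features were below 0, at -0.50 and -0.83. Its fitted change was -0.57 ± 0.51 (SE, 1 array, 95% interval -1.71 to 0.57, limma adjusted p = 0.999), in a comparison with 0.585% of targets called. The interval of this change lies wholly below that of the change from 24 to 36 h. The difference between these changes was -3.44 ± 0.76 (95% interval -5.16 to -1.73), which at an unadjusted p of 0.00128 did not pass over all targets by limma (adjusted p = 0.101). In that contrast, also chosen after the values were seen, 0.180% of targets were called. The pair of 48 and 60 h lies a whole day after that of 24 and 36 h, at the same hours of the day. The light is not given for the array without a stated condition, so effects of elapsed time and light cannot be told apart.

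The changes at 18 h and 24 h share the 0 h time with the comparisons that chose the gene. At 18 h the fitted change was 1.56 ± 0.38 (SE, n = 2 arrays, limma adjusted p = 0.522, unadjusted p = 0.00246), where 0% of 11290 targets were called and 676 had an unadjusted p under 0.05. This value ranked 2 from the top among named genes and 75 among all targets, places counted from the bottom under the other reading, and 14 among named genes by size alone. At 24 h the fitted change was -0.27 ± 0.51 (95% interval -1.41 to 0.87, limma adjusted p = 0.9998), with 0.0177% of targets called. The harvests at 0 h and 24 h lie a whole day apart, and this interval holds 0.

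The values followed the channel of the later RNA. As deposited, before any turning, features A and B read 3.36 and 3.66 on array 1 of 6 h, which had 6 h in channel 2, and -2.28 and -3.37 on array 2, which had 6 h in channel 1. At 12 h the arrays with the later time in channel 2 gave turned values of 0.33 to 1.14, and those with it in channel 1 gave 1.27 and 1.61. On the arrays of 36 h, which also had opposite channel orders, the deposited values were -2.75 and -3.40 without a stated light condition and 2.46 and 2.98 in the dark. Both arrays of 18 h had the later time in channel 1, and the single arrays of 24 h and 60 h had it in channel 2, so these comparisons had no swap. The fitted dye term of the gene was -0.09 ± 0.18 (SE), small beside the changes at 6 h and 36 h. The channels of array 2 of 6 h go against the order of times in its title, and the array was turned by its channels. If it is turned by its title instead, the fitted change at 6 h is 0.67 and neither change from 24 to 36 h is called (adjusted p = 0.548 and 0.514 by limma).

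Both features showed the same course. Their Pearson r over the 13 arrays was 0.920, where the median over 750 genes with exactly 2 fully measured features was 0.390. Of those genes, 29 reached at least this r, AT3G62550 included. A gene chosen for high ratios has a wide range, which can raise this r. On the 6 arrays of the comparisons not used to choose it, the r was 0.962, with a median of 0.411 over the same genes, of which 23 reached at least that value. The gene also had a wide range on those arrays, from -0.66 to 2.96, so the same limit holds there. The features had the same sign on 12 of 13 arrays, the exception being 24 h, where feature A read 0.02 and feature B read -0.74. Feature B lay further from 0 than feature A on 12 of 13 arrays. The gap between them was smallest on array 1 of 18 h, at 0.02, and largest on array 5 of 12 h, at 1.36. The features share array, RNA and labelling, so this is a measure of the spots and not of biological replication, and a spotted cDNA can also bind transcripts of similar sequence, which was not tested.

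**Figure D2:**
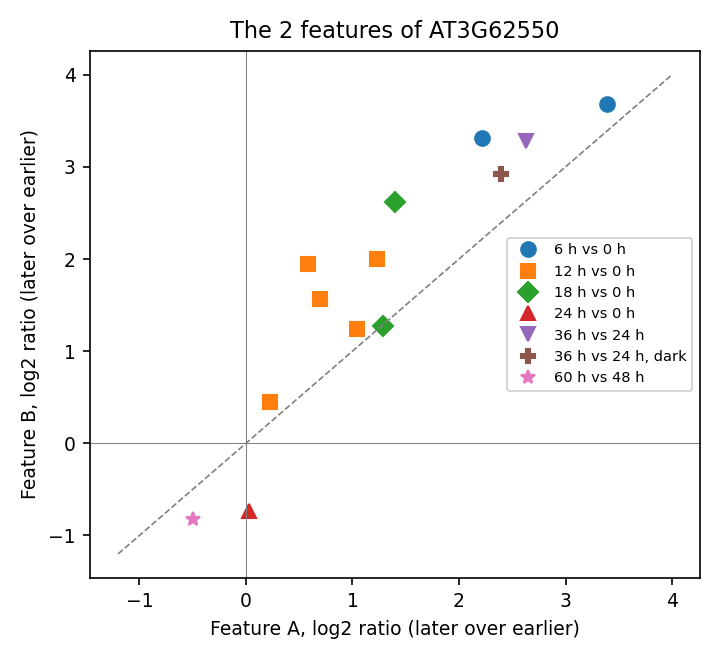
Log2 ratio of feature B (y axis) against feature A (x axis) on each of the 13 arrays, with a symbol for each pair of times and a dashed line where both are equal. Most points lie above the dashed line at positive ratios, and the arrays of 24 h and 60 h lie apart at the lower left.

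Array 1 of 12 h had a narrower spread of ratios than the rest, with an SD of 0.382 over all features against 0.626 to 0.858 on the other 12 arrays. It also gave the lowest of the 12 h values of AT3G62550, 0.33, a ratio that still lay above 90.2% of named genes on that array. On the other 4 arrays of 12 h the gene lay above 96.6% to 99.1% of named genes. Without array 1 the fitted change at 12 h was 1.29, against 1.11 with all arrays.

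Other genes of the family were compared from a list of 23 loci besides AT3G62550, drawn up from general knowledge of the family, of which 14 were measured. None of the 14 passed in any of the 7 comparisons, by limma over all targets. With 1.54% of all targets called from 24 to 36 h and 2.16% in the dark, a count of 0 among 14 does not set them apart from other targets. At 6 h, where 0.00886% of all targets were called, 3 of the 14 had an unadjusted p under 0.05, against 15.0% of all targets. At 12 h, where 4.11% of targets were called, 3 of the 14 had such a p, against 20.7% of all targets. The number was 1 at 18 h (5.99% of all targets), 0 at 24 h (3.22%), 1 from 24 to 36 h (18.3%), 3 in the dark (17.8%) and 0 at 60 h (5.45%). From 24 to 36 h in the dark, 13 of the 14 fitted changes were above 0 (48.8% of all targets), with a median of 0.55 against -0.02. From 24 to 36 h on the other array 11 of 14 were above 0 (48.3%), with a median of 0.20 against -0.03. Fewer were above 0 elsewhere, with 9 of 14 at 6 h (50.4% of all targets) and 9 at 12 h (48.6%). The number was 5 at 18 h (53.6%), 5 at 24 h (45.3%) and 8 at 60 h (45.9%).

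AT3G53990 was the family gene whose ratios came nearest to those of AT3G62550, with a Pearson r of 0.793 over the 13 arrays. It stood at 2.03 and 1.94 on the arrays of 6 h and at 1.93 and 1.67 on those of 18 h. On the arrays of 12 h it stood at -0.23, -0.82, 1.26, 0.55 and 1.45, so that unlike AT3G62550 it was below 0 on 2 of 5. It was high again at 1.69 from 24 to 36 h and 1.53 in the dark, and was -0.26 at 24 h and -0.28 at 60 h. With the dye term, its fitted changes were lower from 24 to 36 h, at 1.17, and above 0 at 24 h (0.27) and 60 h (0.25). The fitted changes of AT3G53990 were 1.98 ± 0.37 at 6 h (limma adjusted p = 0.0634) and 2.06 ± 0.57 in the dark (adjusted p = 0.0967), and neither passed.

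AT2G47710 was the family gene with the most opposite course, with an r of -0.622. It stood at -0.92 and -1.17 at 6 h and fitted at -1.04 ± 0.30 (limma adjusted p = 0.138). RD2, whose name marks it as responsive to desiccation, stood at 1.23 and 0.51 at 6 h and fitted at 1.42 ± 0.50 from 24 to 36 h in the dark (limma adjusted p = 0.175). PHOS32 and PHOS34, named as phosphoproteins, stayed between -0.12 and 0.45 on all arrays for PHOS32 and between -0.98 and 0.66 for PHOS34. AT1G11360 had an r of 0.769 with AT3G62550 but ratios of only -0.42 to 0.75.

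**Figure D3:**
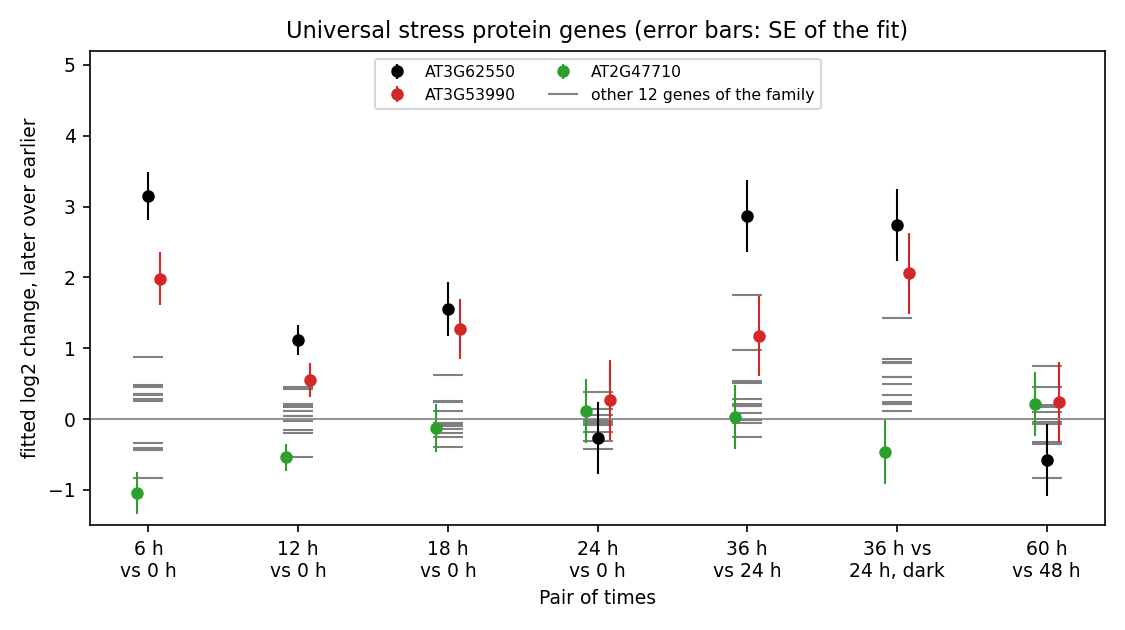
Fitted log2 change (y axis, later over earlier time, with SE bars for the 3 coloured or black genes) of AT3G62550 and 14 other genes of the universal stress protein family for each pair of times (x axis). AT3G62550, in black, is the highest of the family at 6, 12, 18 and 36 h, with AT3G53990, in red, next to it at 6, 12 and 18 h and in the dark.

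Cold and dehydration genes and genes induced by darkness or starvation were set beside AT3G62550, from lists of which 3 of 17 and 6 of 14 genes were measured. Of the cold list, 1 gene was called higher at 12 h, where 1.84% of targets were called higher, and none in the other comparisons, although 2 of 3 had an unadjusted p under 0.05 by limma at 6 h (15.0% of all targets) and 2 in the dark (17.8%). COR47, which encodes a dehydrin, stood at 2.02 and 1.93 at 6 h, at 1.57 from 24 to 36 h and at 1.69 in the dark. Its r with AT3G62550 was 0.812, and its ratios were near 0 at 24 h (0.03) and 60 h (-0.08). With the dye term, the fitted changes of COR47 were above 0 at 24 h (0.46) and 60 h (0.35), where those of AT3G62550 were -0.27 and -0.57. They were 1.14 from 24 to 36 h and 2.12 in the dark. KIN2, a cold-induced gene, had an r of 0.446 and LTI30, a dehydrin gene, of 0.478.

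The dark- and starvation-induced genes shared the high ratios from 24 to 36 h but not those of 6 h. From 24 to 36 h, 3 of 6 were called higher, against 0.824% of targets called higher, and in the dark 4 of 6, against 0.925%. These genes were known to be high on these arrays when the list was drawn up. At 12 h 2 of 6 were called lower, against 2.27% of targets called lower. At 6 h their fitted changes had a median of -0.39 and at 12 h of -0.76, while AT3G62550 was at 3.15 and 1.11. SIS, a salt-induced serine-rich protein gene, rose by 3.22 ± 0.43 (limma adjusted p = 0.0179) from 24 to 36 h, close to AT3G62550, but stood at -0.80 and -0.45 on the arrays of 6 h. AKINBETA1, which encodes a beta subunit of the SnRK1 kinase, stood at -1.23 and -1.03 at 6 h. These were the lowest of the list at 6 h, where 2 of 6 fitted changes were above 0, MCCB at 0.12 and IVD at 0.29.

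Named genes were also compared with AT3G62550 by their course over the arrays. How many such partners other genes have was not counted. Of 3632 other named genes with a value on every array, 12 had a Pearson r above 0.8 with it and 19 an r below -0.8, with a median of -0.05. The arrays share the 0 h and 24 h times and their dye and scanning history, so these values are a description. The nearest was AT5G18130 (r = 0.917), which stood at 2.33 and 2.32 at 6 h, at 1.51 from 24 to 36 h and at 2.03 in the dark, and at -0.79 at 24 h. ARL, a gene that promotes organ growth through cell expansion, followed (r = 0.897), at 1.38 and 0.86 at 6 h and 1.23 and 0.73 on the arrays of 36 h. AT2G15960 had an r of 0.894 and a mean of 1.49 at 6 h. APM1, an aminopeptidase, had an r of 0.880 and a mean of 0.89 at 6 h. AT4G17100, AT5G56190, AT2G16990 and AT4G39955 made up the rest of the 8 nearest, with r of 0.821 to 0.864 and means at 6 h of 0.56 to 0.85. None of these 8 genes was called in any comparison. As 0% (18 h) to 4.11% (12 h) of all targets were called per comparison, that does not set them apart from other targets. Their spread over the arrays was 30.0% to 78.7% of that of AT3G62550.

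The genes with the most opposite course were AT5G52420 (r = -0.906), AT3G52360 (r = -0.896) and AT5G67385 (r = -0.875). AT5G67385 stood at -1.57 and -1.45 at 6 h and at -1.49 and -1.09 on the arrays of 36 h, and was 0.07 at 24 h and 0.36 at 60 h. AT5G52420 stood at -0.89 and -0.58 at 6 h and at -1.07 and -1.24 on the arrays of 36 h.

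**Figure D4:**
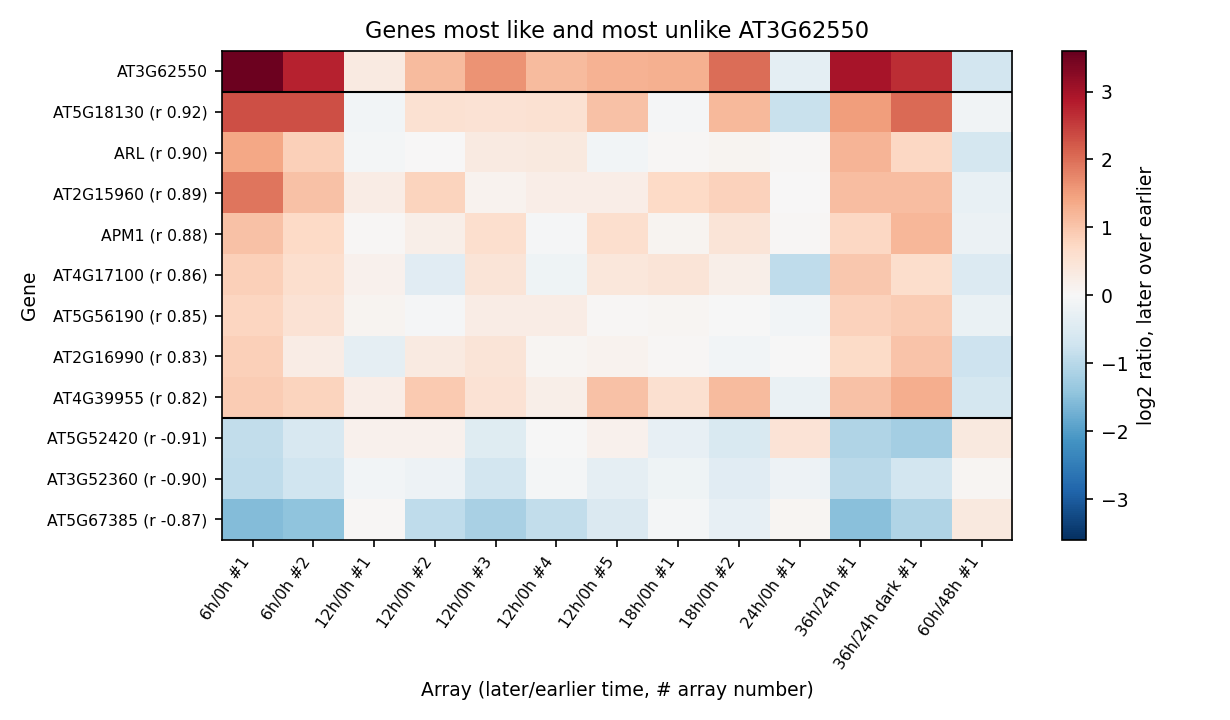
Log2 ratios (colour, later over earlier time) on the 13 arrays (columns) of AT3G62550 (top row), the 8 named genes with the highest and the 3 with the lowest Pearson r with it (rows, r in brackets). The genes like it are red, some only faintly, in the columns of 6 h and 36 h and pale or blue in those of 24 h and 60 h. The genes unlike it show blue in the columns of 6 h and 36 h. The rows were picked by their r over these same arrays, so the shared colours follow from that choice.

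Among the named genes with the largest mean ratios at 6 h, AT3G62550 came second. AT1G70820 had the largest mean, 3.34, with 4.44 and 2.24 on the arrays, but stood at only 0.28 from 24 to 36 h and -0.02 in the dark. AT4G09500 had 2.38 and 3.05 at 6 h, 1.46 and 2.34 on the arrays of 36 h, and -2.01 at 60 h. AT1G33970 had 3.31 and 1.75 at 6 h, and 2.26 and 2.65 on the arrays of 36 h. AT1G13930 had 3.79 and 1.16 at 6 h, so that its arrays differed far more than those of AT3G62550. In all 14 named genes had a mean above 2 (4-fold) at 6 h, and 6 exceeded this on both arrays. Only AT3G62550 and AT1G33970 exceeded it in the mean of 6 h and on both arrays of 36 h, a cut-off chosen after the values were seen.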

How the data were processed

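The authors deposited log2 ratios, 1 for each feature of an array. Scanner images were read, per the labels, with ScanAlyze 2.33, 2.42 or 2.44; background correction, normalization and the direction of the ratio are not given in the sources used here. That the base is 2 was read from the values: the log2 of 1/2 occurs 159 times, against 20.4 at neighbouring steps. Array medians ran from -0.147 to 0.06. Signal over background is unknown, and the number of arrays limits precision.

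Groups came from the labels of both channels. The 13 arrays had ratios for 12446 to 12795 features. The platform annotation gave a single gene for 5197 features, 214 had several and 7389 were not listed. Current symbols came from the TAIR10.1 gene table (5190 features matched). No positions are printed, since the build behind the array is not given. Ratios were centred on the array median, turned to later over earlier time and averaged over features of a gene. Targets with values on at least 10 arrays were fitted with limma 3.58.1 in R 4.3.3 (11290 targets) with a coefficient for each pair of times and a dye term, and p-values were adjusted by Benjamini-Hochberg (threshold 0.05). The scripts were tested on simulated data. Nothing says that arrays of 1 comparison came from separate plants, apart from the word biological on 3 titles, so the spread behind the p-values is that between arrays and may be technical.

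The gene, the lists and the contrasts were chosen with earlier results of these data known. Genes named are AT3G62550, members of the lists, the 8 most and 3 most unlike it by Pearson r, and the 5 with the largest mean at 6 h. The motif search planned for promoters was not run, as no promoter sequences were used here. Alternatives covered the dye term, centring, scaling, missing values, single features, the title order of 1 array and software. Each array of 6 h, 12 h and 18 h was also left out in turn, but not the lone arrays of the other comparisons.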

Additional observations from a re-analysis of the deposited data

Results flagged for a closer look

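In 3 genes set beside AT3G62550, 1 of the 5 arrays of 12 h lay far from the other 4, by a gap over most of the group's range. AT2G15960 stood at 0.79 on array 2, with the next value at 0.27. LTI30 stood at 2.10 on array 2, with the next at 0.15. AT1G33970 stood at 0.17 on array 1, the array with the narrow spread, with the next at 1.4995. The rule was applied to 40 genes, and chance flags about 5% of groups. AT3G62550 itself had no such array.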

How the results depend on the processing

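No paired analysis was possible because the array numbers are names given here and tie no arrays together. AT3G62550 kept its sign in each of the 7 comparisons under every alternative run for it. At 6 h its fitted change was 0.67 with array 2 turned by its title and ran from 2.48 to 3.82 when arrays were left out. From 24 to 36 h it was not called with a separate dye term for ScanAlyze 2.33 (3.002, limma adjusted p = 0.0818), with arrays scaled to one spread (2.09, 0.323) or with array 2 of 6 h turned (2.67, 0.548), and ran from 2.67 to 2.99 when arrays were left out. In the dark the same 3 settings gave 2.61 (adjusted p = 0.0990), 2.31 (0.0961) and 2.94 (0.514), and leaving out arrays 2.62 to 2.94. The dark change minus the other reversed with scaling (0.22), with array 2 turned (0.27) and for feature B alone (0.15), and ran from -0.37 to 0.27 when arrays were left out. Its main value was -0.12. The change from 48 to 60 h minus that from 24 to 36 h ran from -3.71 to -3.05 and was not called under any setting. Of the 8 genes most like AT3G62550, 5 were also among the 8 nearest by Spearman's rho, 6 with dye-corrected ratios and 3 without the arrays of 6 h. The count of 0 calls among other universal stress protein genes was the same under each of the 5 settings run for it, in all 7 comparisons. Calls over all targets ranged from 0 to 221 around 174 for 24 to 36 h, 0 to 361 around 243 in the dark, 23 to 188 around 65 at 60 h, 0 to 54 around 2 at 24 h and 0 to 156 around 0 at 18 h. The 2.33 arrays alone held none of the 36 h or 60 h arrays, so that alternative was not run there.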

Other observations

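Of the 4 genes on either side of AT3G62550 in the TAIR10.1 gene table, only AT3G62530 had a named feature. Its mean ratio was 0.84 at 6 h and 0.81 at 12 h, but -0.87 from 24 to 36 h and -0.82 in the dark, opposite in sign to AT3G62550, and 0.42 at 60 h. It was picked for its place in the gene order after the values were seen and was not tested.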
